A study of Mus musculus with 6 samples.

Results

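The genes that move calcium in the embryonic heart muscle cell were compared between Dicer mutant and control hearts. They comprise 10 genes for a membrane exchanger, a pump with its regulators, the release channel and buffer of the internal store, and the calcium channels of the cell membrane. They were picked by name, with earlier results of these data known, and all probes that the platform annotation assigns to them alone were used. This gave 14 probes for the 10 genes, out of 18005 genes listed with a probe of their own. In the mutant hearts Dicer, the enzyme that cuts microRNA precursors, was inactivated by a Cre recombinase knocked into the cardiac Nkx2.5 locus. That locus is active in heart progenitors and their descendants. Hearts of mouse embryos of day 11.5 were dissected, and 3 mutant and 3 control samples of total RNA were each hybridised to a CodeLink array of 36227 spots. The genotype of the control hearts, and whether an array held 1 heart or a pool, were not given with the labels. The p-values therefore describe the variation among these 6 samples only, part of which may be technical.

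In heart muscle, each beat starts when calcium enters through voltage-gated channels of the cell membrane. In the adult cell this entry opens ryanodine receptors, which release more calcium from the sarcoplasmic reticulum, and the calcium is then pumped back into the reticulum or carried out of the cell in exchange for sodium. In the embryo the reticulum is sparse, and entry and exit across the cell membrane carry a larger part of the cycle.

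Of the 14 probes, 11 probes of 8 genes were bright enough to test, meaning that at least 3 of the 6 spots exceeded their background. The second Ryr2 probe and the probe of Casq2, which encodes calsequestrin, the calcium buffer of the cardiac store, carried the masking flag and no intensity on any of the 6 arrays, and have no value here. Cacna1g missed the requirement and is described by its values. None of the 11 tested probes passed limma's test at an adjusted p under 0.05, where 0.0512% of all 17589 probes tested did (9 probes, 0.0284% higher and 0.0227% lower). At an unadjusted p under 0.05 there were 3, all higher in the mutant, where 6.75% of all probes were higher and 3.27% lower. The probes were the brightest ones of Slc8a1, Cacna1c and Cacna1h. In 4 probes all mutant arrays lay above all control arrays (9.90% of all probes) and in 1 probe all lay below (5.30%). The median log2 difference, mutant minus control, was 0.23 over the 11 probes and 0.015 over all probes tested. The first of these was 0.33 without mutant 1, 0.11 without mutant 2 and 0.0997 without mutant 3. It was 0.061 without control 1, 0.205 without control 2 and 0.25 without control 3. With 11 probes these shares are a description.

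**Figure D1:**
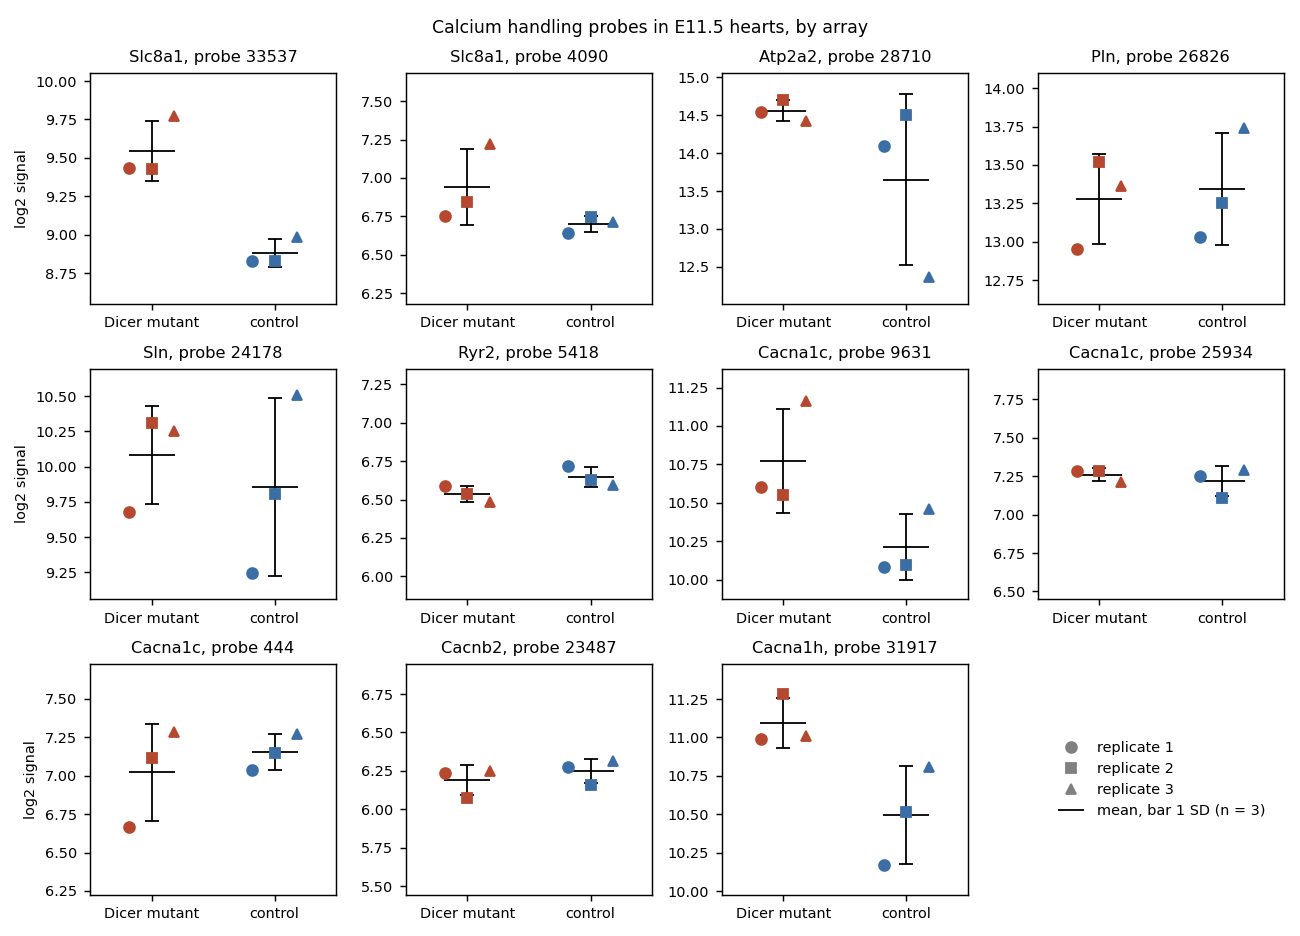
Log2 signal of the 11 tested calcium handling probes in each of 3 Dicer mutant arrays (left, red) and 3 control arrays (right, blue); every panel has its own scale, the line is the mean and the bar 1 SD. The mutant arrays sit above the control arrays for the brightest probes of Slc8a1, Cacna1c and Cacna1h, and control 3 lies far below the other arrays for Atp2a2, at 12.37.

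The targeted gene, Dicer1, had log2 signals of 6.74, 6.73 and 6.68 in the mutants, against 7.82, 7.63 and 7.71 in the controls (limma adjusted p = 0.0355), although where its probe lies relative to the deleted part is not known. Bright cardiac muscle markers were present on every array, and Actc1, the cardiac actin, lay between 15.05 and 15.22, near the top of the scale. Another such marker, Myh6, was dim, at 6.54, 6.50 and 6.57 in the mutants, against 6.13, 5.78 and 6.83 in the controls. The arrays did not all follow their groups. Without control 3, 321 probes passed in place of 9 (1.83% of those tested, 0.677% higher), and without mutant 3 and control 3 together 3879 did (22.1%). Member results that rest on these arrays are therefore given with and without them.

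The promoters of the sodium-calcium exchanger and of phospholamban are shown because these genes stand at opposite ends of the results below. Of the 11 probes, the lowest p was for Slc8a1 and the highest for Pln, though neither passed the test. Sequences are from RefSeq (GRCm38.p6) and run from 250 bases before the listed start site to 50 bases from it on. Of the 10 genes, 6 had an entry, with 9 promoters between them, and Atp2a2, Sln, Cacna1g and Cacna1h were not matched. Capitals mark matches, on either strand, to AGATAA, a motif of GATA factors, or to TATAAA, the core promoter motif.
Slc8a1, chr17:81738338-81738637, minus strand: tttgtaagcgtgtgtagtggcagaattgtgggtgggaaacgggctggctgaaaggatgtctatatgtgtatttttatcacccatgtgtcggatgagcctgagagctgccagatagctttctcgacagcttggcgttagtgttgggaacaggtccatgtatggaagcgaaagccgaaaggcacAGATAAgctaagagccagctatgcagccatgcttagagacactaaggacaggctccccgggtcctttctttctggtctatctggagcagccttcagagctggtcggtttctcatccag
Pln, chr10:53337436-53337735, plus strand: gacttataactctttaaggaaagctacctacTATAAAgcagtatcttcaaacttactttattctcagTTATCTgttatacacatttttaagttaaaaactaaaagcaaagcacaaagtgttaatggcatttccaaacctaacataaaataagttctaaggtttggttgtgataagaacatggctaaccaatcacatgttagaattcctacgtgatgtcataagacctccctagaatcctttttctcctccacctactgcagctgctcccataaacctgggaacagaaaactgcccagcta
Counted from the start site, the AGATAA match of Slc8a1 begins at -68 on the strand shown, and that of Pln at -183 on the other strand. AGATAA occurred in 11.2% of all 32851 promoters of this length. TATAAA occurred in 13.6%, and its match in Pln begins at -219 on the strand shown. The MEF2 box, searched by its usual degenerate pattern, occurred in 3.19% of promoters, and among the members in that of Casq2. TNAAGTG, a motif of Nkx2-5, occurred in 11.5% and among the members in 1 of the 9 promoters, of Cacnb2. None of the 9 held a CArG box (1.63% of all promoters) or CATTCC (14.7%). These are letter matches and were not measured as binding.

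Slc8a1 encodes NCX1, the exchanger that carries calcium out of the cell against sodium and the main route of calcium exit in heart muscle. Its brighter probe (number 33537) had log2 signals of 9.43, 9.43 and 9.77 in the mutants, against 8.83, 8.83 and 8.99 in the controls. The lowest mutant array lay 0.44 above the highest control array. The difference was 0.66 ± 0.13 (SE), or 1.58-fold (95% interval 1.29 to 1.95), with a limma adjusted p of 0.16. Background-subtracted intensities were 692, 670 and 721 in the mutants, against 386, 425 and 446 in the controls, so the groups were also apart before any normalization.

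The other Slc8a1 probe (4090) was dim. Its log2 signals were 6.75, 6.84 and 7.22 in the mutants, against 6.64, 6.74 and 6.71 in the controls, a difference of 0.24 ± 0.14 (adjusted p = 0.59). Mutant 1 and control 2 were nearly level, and without mutant 3 the difference was 0.0997. The spot on mutant 3 was flagged irregular. With the authors' normalized intensity the difference was 0.40 for 4090 and 0.74 for 33537. In the series' value table of the same intensities it was 0.15 and 0.74. The 0.15 is the difference that these intensities give without mutant 3. The gap between the probes, 0.42, had an exact two-sided permutation p of 0.1, the smallest that 3 against 3 arrays allow.

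For the bright Slc8a1 probe the difference was 0.71 without control 3 (adjusted p = 0.0623) and 0.60 without mutant 3 and control 3 (adjusted p = 0.00669). In that smaller comparison 22.1% of all probes passed. Matched by the number in the middle of the array titles, the 3 mutant minus control differences were 0.61, 0.60 and 0.79. The genes whose main probe ran most like it over the 6 arrays were Tdp2, Fbxo32 and Rhebl1, with Pearson r of 0.995, 0.994 and 0.994. In all, 139 of 13703 genes exceeded an r of 0.95. The 6 points share their 2 groups.

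Atp2a2 encodes SERCA2, the pump that returns calcium to the reticulum. Its log2 signals were 14.54, 14.70 and 14.43 in the mutants, against 14.09, 14.50 and 12.37 in the controls, and the groups overlapped. The difference of 0.90 ± 0.52 (adjusted p = 0.59) rested on control 3 and was 0.26 without it (adjusted p = 0.43). The subtracted intensity there was 4969, against 19206 to 28038 on the 3 mutant arrays and 19603 and 24335 on the other controls. Its spot was flagged good on all 6 arrays. The median pixel of the spot was 11151, 23922 and 5427 in the mutants, against 21884, 12977 and 2326 in the controls, so that pixels within these bright spots varied widely. With pixel medians in place of means, a setting chosen after the data were seen, the difference was 0.58 (adjusted p = 0.82).

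**Figure D2:**
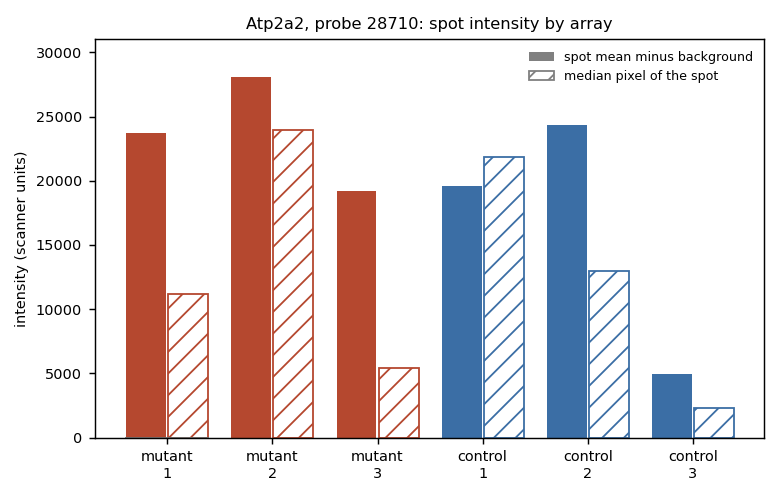
Spot intensity of the Atp2a2 probe on each array, in scanner units, as the spot mean minus background (filled bars) and as the median pixel of the spot (hatched bars), with mutants in red and controls in blue. Control 3, at 4969, is far below the other 5 arrays, which lie between 19206 and 28038.

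Pln and Sln encode phospholamban and sarcolipin, small membrane proteins that slow the pump, Pln mainly in ventricle and Sln mainly in atrium. Pln had log2 signals of 12.95, 13.52 and 13.36 in the mutants, against 13.03, 13.26 and 13.74 in the controls. The ranges overlapped almost entirely, and the difference was -0.06 ± 0.22 (adjusted p = 0.94), a fold of 0.957 with a 95% interval of 0.66 to 1.39. Changes of that size in either direction were not detectable with these arrays. Sln gave 9.68, 10.31 and 10.25 in the mutants, against 9.25, 9.81 and 10.50 in the controls. The difference was 0.23 ± 0.33 (adjusted p = 0.84), and control 3 was the highest of the 6 arrays for both genes. Without control 3 the differences were 0.14 for Pln and 0.55 for Sln, neither passing (adjusted p = 0.75 and 0.29), so that the sign for Pln turned. Sln was also at -0.07 without control 1.

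Marker levels also differed between arrays of the same group. The 11 cardiomyocyte markers, all measured, had list medians, relative to the mean of the 6 arrays, of 0.13, 0.11 and -0.03 in mutants 1 to 3 and -0.32, -0.16 and 0.41 in controls 1 to 3. Their summed signal was 119706 to 135687 in the mutants, against 90662, 108035 and 140222 in controls 1, 2 and 3. Pln and Sln were likewise lowest in control 1 and highest in control 3 among the controls, but in mutant 1, where the marker median was highest among the mutants, both were at their lowest mutant value. The 9 erythroid markers measured of 10 had medians of -0.16 to 0.04 in the mutants, against 0.47, 0.24 and -0.16 in controls 1 to 3. Summed over the list, the erythroid signal was 115173 to 123149 in the mutants, against 122561 to 128757 in the controls, a sum dominated by globin probes at the top of the intensity scale. In such bulk samples, fewer cells of a type and less RNA per cell cannot be told apart, and the part of cell makeup in these values was not tested. Taken relative to the cardiomyocyte markers of each array, the difference was -0.11 ± 0.27 (SE) for Pln and 0.18 ± 0.28 for Sln. On that scale the brightest probes gave 0.62 ± 0.28 for Slc8a1, 0.52 ± 0.28 for Cacna1c and 0.56 ± 0.26 for Cacna1h. None of these passed (limma adjusted p = 0.9999 each).

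**Figure D3:**
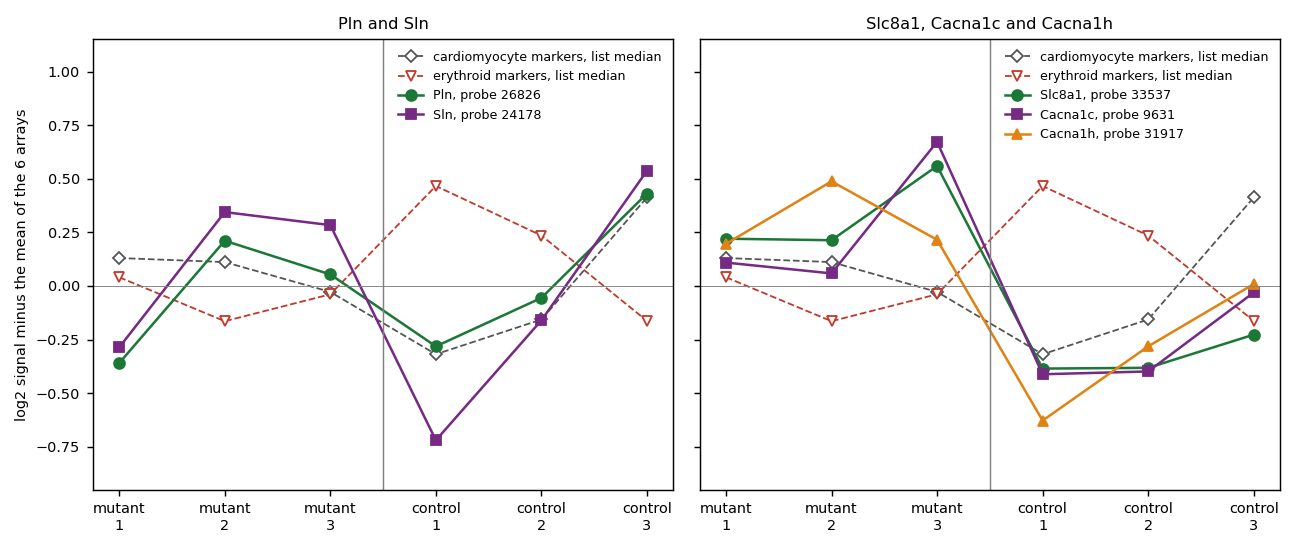
Log2 signal minus the mean of the 6 arrays, by array, for Pln and Sln (left) and for the brightest probes of Slc8a1, Cacna1c and Cacna1h (right), beside the list medians of cardiomyocyte and erythroid markers (dashed). Pln, Sln and the cardiomyocyte markers are all highest in control 3, at 0.43, 0.54 and 0.41, where Slc8a1 is at -0.23.

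Ryr2 encodes the ryanodine receptor, the release channel of the cardiac store. The measured probe (5418) was dim, with subtracted intensities of 45.3, 41.3 and 32.8 in the mutants, against 51.3, 48.8 and 44.6 in the controls. On the log2 scale it gave 6.59, 6.53 and 6.48 in the mutants, against 6.72, 6.62 and 6.60 in the controls. All mutants lay below all controls, with the nearest arrays almost level. The difference was -0.11 ± 0.09 (adjusted p = 0.68), and -0.28 with the authors' normalized intensity (adjusted p = 0.59). With one dim probe and another that was masked, the release channel was poorly measured on these arrays.

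Cacna1c and Cacnb2 encode the pore and the main beta subunit of the L-type channel, the route of calcium entry that triggers contraction. The brightest Cacna1c probe (9631) had log2 signals of 10.60, 10.55 and 11.16 in the mutants, against 10.08, 10.09 and 10.46 in the controls. The groups did not overlap, although mutant 2 and control 3 were only 0.09 apart. The difference was 0.56 ± 0.20, or 1.47-fold (95% interval 1.06 to 2.05, adjusted p = 0.41). It was 0.69 without control 3 (adjusted p = 0.13), 0.49 without mutant 3 and control 3 (adjusted p = 0.0142), and 0.36 without mutant 3.

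The other Cacna1c probes, both annotated through expressed sequence tags, showed no such difference. Probe 25934 gave 7.28, 7.29 and 7.21 in the mutants, against 7.25, 7.11 and 7.29 in the controls, a difference of 0.04 ± 0.09 (adjusted p = 0.89). Probe 444 gave 6.67, 7.12 and 7.28 in the mutants, against 7.04, 7.15 and 7.27 in the controls, a difference of -0.13 ± 0.17 (adjusted p = 0.82). The brightest probe exceeded them by 0.52 and 0.69 in its difference (exact permutation p = 0.1 each, two-sided, the smallest possible). Which transcripts each probe detects was not tested. Cacnb2 was near background, above it on mutant 1, control 1 and control 3. Its log2 signals were 6.24, 6.08 and 6.25 in the mutants, against 6.28, 6.16 and 6.31 in the controls, with a difference of -0.06 ± 0.10 (adjusted p = 0.85).

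Cacna1g and Cacna1h encode the T-type channels Cav3.1 and Cav3.2, which open at low voltage and contribute to automatic beating in the embryonic heart. Cacna1h had log2 signals of 10.99, 11.28 and 11.01 in the mutants, against 10.17, 10.51 and 10.80 in the controls. Its probe, like the dimmer Cacna1c probes, was annotated through an expressed sequence tag. The groups did not overlap, and the controls were spread over 0.64 log2 units, with control 3 nearest to the mutants. The difference was 0.60 ± 0.18, or 1.52-fold (95% interval 1.13 to 2.04, adjusted p = 0.33). Without control 3 it was 0.75 (adjusted p = 0.0709), and without mutant 3 and control 3 it was 0.80 (adjusted p = 0.0146). Leaving out control 1 gave 0.44 (adjusted p = 0.62), the lowest of the values with 1 array left out. By title number the 3 differences were 0.82, 0.77 and 0.21. Cacna1g was above background on mutants 1 and 2 and on no control array, with signals of 6.36, 6.24 and 6.14 in the mutants, against 6.16, 6.17 and 6.18 in the controls. The mean of its mutant values, with mutant 3 not above background, was 1.05-fold the level that the control arrays could show. That ratio is too small to separate the groups.

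**Figure D4:**
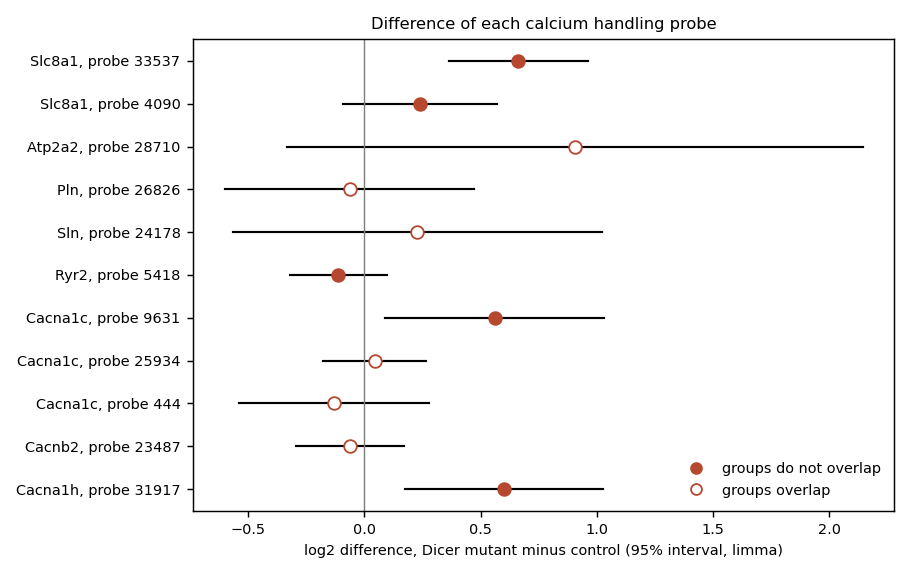
Log2 difference, Dicer mutant minus control, of the 11 tested probes, with 95% intervals from limma; filled points mark probes whose groups do not overlap. The intervals of the brightest Slc8a1, Cacna1c and Cacna1h probes, at 0.66, 0.56 and 0.60, lie above 0 before adjustment for the number of probes tested, and none passed after it.

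Without mutant 3 and control 3, the brightest probes of Slc8a1, Cacna1c and Cacna1h all passed, beside 11.7% of all probes called higher. Leaving out mutant 1 and control 1 instead gave 0.69, 0.58 and 0.49 for these probes. With mutant 2 and control 2 left out they gave 0.70, 0.61 and 0.52. None passed in either setting. The titles of mutants 1 and 2 and control 1 begin with the same code, which the labels do not explain and which could mark a slide. With that code as a block the differences were 0.60 for Slc8a1, 0.50 for Cacna1c and 0.97 for Cacna1h. They come from 2 mutant arrays against 1 control array, which is assumed to vary like the mutants, and the fit called 7.44% of all probes (2.97% higher) and Cacna1h among the members.

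No marker of another cell type passed the test, but some marker lists had separate values in the groups. The 4 smooth muscle markers measured of 5 (Tagln was not listed) had list medians of 0.20 to 0.33 in the mutants, against -0.30 to -0.06 in the controls, and summed signals of 19821 to 24835 in the mutants, against 18120 to 19755 in the controls. Of 11 skeletal muscle markers 8 were measured, 4 positive and 4 negative, and Myog, Myf6 and Tnnc2 were not above background on enough arrays. Their list medians overlapped, at -0.04 to 0.30 in the mutants, against -0.10 to -0.03 in the controls, while their summed signals were 10990 to 14451 in the mutants, against 8946 to 9762 in the controls. Single skeletal markers, named after their values were seen, ran both ways: the fast troponin genes Tnni2 and Tnnt3 gave 0.80 and 2.63 (adjusted p = 0.083 and 0.12), and Acta1 and Ckm gave -0.39 and -0.74. The 8 endothelial markers measured of 10 had medians of -0.17 to -0.003 in the mutants, against 0.040 to 0.073 in the controls, but summed signals that overlapped, at 6918 to 8030 in the mutants and 7950 to 8519 in the controls. The part of these cell types in the results was not tested. For atrial and ventricular markers the list medians overlapped between the groups. They lay at -0.07 to 0.19 in the mutants against -0.22 to 0.25 in the controls for the atrial list. For the ventricular list they were -0.24 to 0.007 in the mutants against -0.16 to 0.37 in the controls. Single ventricular markers were apart in opposite directions, Myl3 at -0.78 and Irx4 at 1.22 (limma adjusted p = 0.083 and 0.24), while the others overlapped.

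The wider calcium pathway was compared through 5 lists, and no measured gene of any list passed limma's test in either direction. At an unadjusted p under 0.05 there were 1, 2, 3, 3 and 2 genes, in the order of the lists below. That is 11 of 80 genes (13.75%), each by its brightest probe and in either direction. Cacnb1, S100a1 and Nfatc4 were the ones lower in the mutant. Of all probes tested, 1764 of 17589 were under this p in either direction (6.75% higher and 3.27% lower). Of the other voltage-gated channel subunits, 15 of 18 were measured, with a median difference of -0.15, 3 positive and 12 negative. The lowest p belonged to Cacnb1, the beta subunit of skeletal muscle (-0.27 ± 0.11), and to the gamma subunit gene Cacng6 (-0.26 ± 0.11), with adjusted p of 0.48 and 0.50. Both were dim, with mean log2 signals of 6.96 and 6.65 in the mutants, against 7.23 and 6.91 in the controls. Most other genes of this list were dim as well.

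Among store partners and release channels, 17 of 19 were measured and the median was 0.07. S100a1, a calcium-binding protein that promotes SERCA2 and ryanodine receptor activity, had log2 signals of 9.85, 10.05 and 10.32 in the mutants, against 10.74, 10.83 and 10.77 in the controls. All mutants lay below all controls, by -0.71 ± 0.13 (adjusted p = 0.16). Sri, which encodes sorcin, a modulator of the release channel, gave 0.48 ± 0.16 (adjusted p = 0.39).

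Among the other pumps, exchangers and entry channels, 17 of 23 were measured, with a median of 0.05. Slc8a2, the related exchanger NCX2 known mainly from brain, had signals of 9.27, 9.37 and 9.22 in the mutants, against 8.46, 8.60 and 8.83 in the controls. The groups did not overlap, and the difference of 0.66 ± 0.12 (adjusted p = 0.16) was as large as that of Slc8a1. Whether either probe also detects the other exchanger's transcript was not tested. Trpm7, a cation channel with a kinase domain, gave 0.50 ± 0.11 (adjusted p = 0.21). Atp2a3, the related pump SERCA3, was singled out after its values were seen: 8.91, 8.86 and 9.10 in the mutants, against 7.38, 7.70 and 8.40 in the controls, a difference of 1.13 ± 0.25 (adjusted p = 0.21), and 1.42 without control 3.

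Calmodulin, CaM kinase and calcineurin genes had a median of 0.0006 over 17 measured of 21. Rcan3, a regulator of calcineurin, gave 9.65, 9.61 and 9.73 in the mutants, against 9.19, 9.05 and 8.75 in the controls, a difference of 0.67 ± 0.13 (adjusted p = 0.17). Nfatc4, a transcription factor that calcineurin activates, gave -0.85 ± 0.17 (adjusted p = 0.18), and its dimmer probe -0.49. The adrenergic and protein kinase A list had 14 of 19 measured and a median of 0.02. Adcy6, a cardiac adenylyl cyclase, gave 0.50 ± 0.17 (adjusted p = 0.40), and Prkar1a, a regulatory subunit of protein kinase A, 0.46 ± 0.19 (adjusted p = 0.49). With control 3, or mutant 3 and control 3, left out of the means, none of the 10 genes named by lowest p changed sign. Cacnb1 and Cacng6 gave -0.15 and -0.12 without both arrays. Without control 3 alone the median was 0.06 for the calmodulin list, 0.13 for the adrenergic list and 0.013 for the other pumps, exchangers and entry channels, and without both arrays the first of these was 0.10 and the second 0.17.

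**Figure D5:**
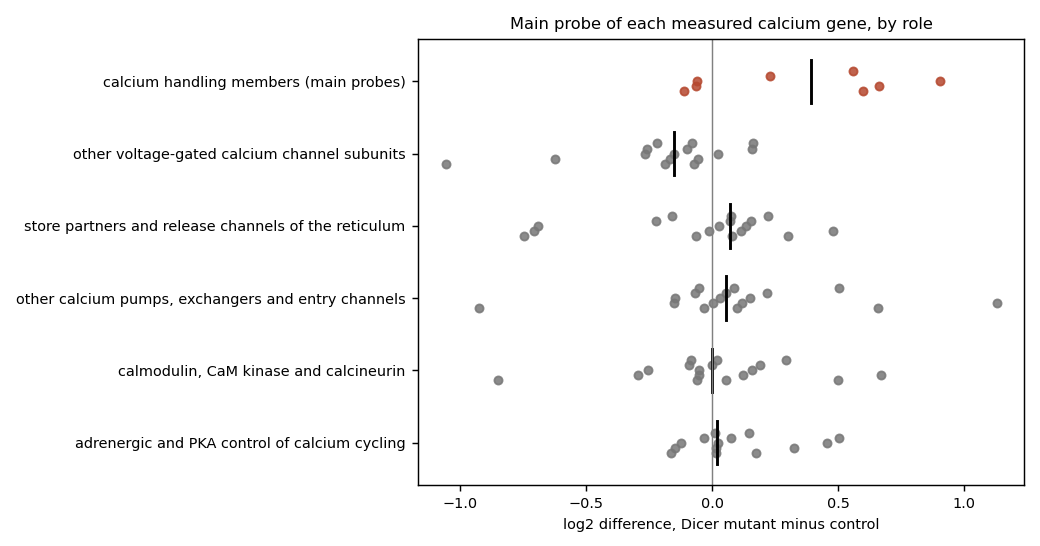
Log2 difference, Dicer mutant minus control, of the main probe of each measured gene (points) and the median of each group (black line), for the 8 measured calcium handling members (red) and the 5 wider lists (grey). The medians of the wider lists run from -0.15 to 0.07, and that of the members is 0.39. The member median is 0.20 without control 1, 0.25 without mutant 3 and 0.41 without control 3. Among the members, Atp2a2 at 0.90 rests on control 3.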

How the data were processed

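Biotin-labelled total RNA of 3 Dicer mutant and 3 control hearts was read on 6 single-colour CodeLink arrays, per the labels. The deposited files give, per the file headers, the mean and median pixel intensity of each spot, its background median, a subtracted intensity and the authors' normalized intensity, and between 74.1% and 78.2% of spots per array were above background. No source used here gives the scanner, its software or a genome build. The descriptions in the labels set the groups, and replicate numbers follow accession order.

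The background of each spot mean was corrected by normexp with an offset of 50, fitted on all spots, and log2 values were then quantile-normalized over the 21880 spots that the platform annotation lists. Probes with 1 gene and a flag above background on at least 3 arrays (17589 probes of 15012 genes) were compared with lmFit and eBayes of limma 3.58.1 in R 4.3.3, two-sided, adjusted by Benjamini-Hochberg over all of them, without a block. The test was checked on simulated data. A gene's main probe is its brightest. The members, lists and tests were chosen with earlier results of these data known. Named genes are all members, Dicer1 and, per list, those that passed or else the 2 with the lowest p, for the 5 pathway lists; Atp2a3 and single markers were named after their values were seen. A fold change of a dim probe is pulled towards 1 by the offset. Alternatives changed the background correction, intensity, normalization, filter, probes tested, variance model, blocks and arrays.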

Additional observations from a re-analysis of the deposited data

How the results depend on the processing

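Over 26 alternatives the tested probes gave 285 values, of which 4 gained a call, 9 changed sign without a call and none reversed a call. The calls gained were those of Slc8a1, Cacna1c and Cacna1h without both arrays of title number 3 and of Cacna1h with the shared title code as a block, a fit that rests on 1 control array, so the count of called members moved to 3 and 1 there; leaving out 1 array at a time it stayed at 0. The signs that changed were those of Pln, Sln and the dim Cacna1c probes. Relative to the cardiomyocyte markers the count was 0 as well, with 2 probes at an unadjusted p under 0.05, and no member passed in the other settings.

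The number of all probes called, 9, moved to 5 with the subtracted intensity and with the series' value table, 4 with normexp offset 0 and with the authors' normalized intensity, 3 with pixel medians, 1308 with the title code as a block and 3879 without title number 3, and to 0 without title number 1 or 2. It ran from 0 to 321 over arrays left out singly. Pixel medians and quantiles over all spots were chosen after the data were seen. Replicates with the same title number did not deviate together (correlations of 0.016, -0.48 and -0.38), so the numbers were not taken to pair them. Deviations from means of 3 arrays cannot show whether arrays share a litter, which the labels do not state. With the title number as a block, 0 probes and 0 members passed (1315 probes at an unadjusted p under 0.05). The SE of the brightest Slc8a1 and Cacna1c probes was then 0.10 and 0.11, against 0.13 and 0.20 without the block. That of Ryr2 was 0.095 with the block, against 0.087. Signal near background limits Ryr2, Cacnb2 and Cacna1g, and low signal limits most of the other voltage-gated channel subunits.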
